A study of Homo sapiens with 47 samples.

Results

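The HA dCas9-VP16(10x) peaks described here lie at promoters and were present whichever gRNAs were delivered. Their 2522 members were chosen by HA peak calls. A peak of the list made with IL1RN gRNAs (8148 peaks on the assembled chromosomes) was a member when it overlapped a peak in all 4 other HA dCas9-VP16(10x) lists, lay within 1 kb of a GENCODE transcription start, and lay more than 5 kb from each of the 19 loci that received gRNAs. HA peak presence and HA enrichment are therefore given as descriptions, without tests. The readouts that the choice did not use are RNAPII and H3K27ac ChIP-seq.

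Ishikawa cells, a human endometrial adenocarcinoma line, were held in hormone-depleted media for at least 5 days and then transiently transfected with plasmids for a dCas9 fusion and for gRNAs. dCas9-VP16(10x) carries repeats of the viral VP16 activation domain and dCas9-p300(core) carries the acetyltransferase core of p300. The gRNA pools were IL1RN (the IL1RN promoter, the study's control), Pools 1, 2 and 3 (estrogen receptor binding sites, ERBSs, near MMP17, CISH, FHL2 and HES2), ERBS (those 3 pools together) and Adjacent (regions beside the ERBSs). HA was measured in 5 dCas9-VP16(10x) libraries (1 IL1RN, 2 ERBS, 2 Adjacent) and 2 dCas9-p300(core) ERBS libraries, and RNAPII and H3K27ac in 20 libraries each, 2 per fusion for IL1RN, Adjacent and Pools 1, 2 and 3. Cells were selected with puromycin and G418 for both plasmids before chromatin was harvested. No HA library without a dCas9 fusion was analysed here.

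dCas9 is the catalytically inactive Cas9 protein, which a gRNA directs to a matching sequence next to an NGG motif. At active promoters, initiation factors assemble in a nucleosome-depleted stretch around the transcription start, RNAPII gathers just downstream of the start, and H3K27ac marks the flanking nucleosomes. VP16 is known for contacting the initiation machinery and Mediator, while p300 acetylates histone tails including H3K27. Peak values below are the fold enrichment over background in each peak list, which has no unit. Sequencing depth is unknown from these lists.

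The sequences around the HA summits of the 4 members with the highest enrichment in the IL1RN list, and of EEF1A1, a member also found in both dCas9-p300(core) lists, are shown to let the promoters be read directly. Each run is read 5′ to 3′ from the plus strand of the hg19 reference, with 60 bases on each side of the summit, and capitals mark the GC box, GGGCGG or, where it lies on the minus strand, CCGCCC.
NUDT16 (chr3:131100453-131100573): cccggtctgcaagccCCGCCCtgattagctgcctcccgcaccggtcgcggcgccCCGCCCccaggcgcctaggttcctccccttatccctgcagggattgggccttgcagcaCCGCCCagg
VKORC1 (chr16:31106085-31106205): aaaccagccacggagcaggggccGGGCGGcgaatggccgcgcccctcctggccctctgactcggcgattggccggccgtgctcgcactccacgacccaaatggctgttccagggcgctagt
CLIC4 (chr1:25071670-25071790): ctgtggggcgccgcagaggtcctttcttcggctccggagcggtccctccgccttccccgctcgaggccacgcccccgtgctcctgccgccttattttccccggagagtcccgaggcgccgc
PTPN6 (chr12:7055558-7055678): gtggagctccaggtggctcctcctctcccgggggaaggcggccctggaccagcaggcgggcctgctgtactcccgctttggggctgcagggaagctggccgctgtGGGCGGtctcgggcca
EEF1A1 (chr6:74230845-74230965): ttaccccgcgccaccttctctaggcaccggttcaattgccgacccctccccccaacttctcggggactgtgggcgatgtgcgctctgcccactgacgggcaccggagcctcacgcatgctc
The NUDT16 run held 3 GC boxes, the VKORC1 and PTPN6 runs 1 each, and the CLIC4 and EEF1A1 runs none. GC content was 72.7% in the NUDT16, CLIC4 and PTPN6 runs, 70.2% in VKORC1 and 66.1% in EEF1A1.

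Before the values, the lists themselves need a description. The 5 HA dCas9-VP16(10x) lists held 8148 (IL1RN), 6179 and 30740 (ERBS), and 4783 and 25109 (Adjacent) peaks, so the shorter list of each pair set which peaks could be members. Of the IL1RN peaks, 2881 overlapped all 4 other lists, 2298 overlapped 3, 2920 overlapped 2, 42 overlapped 1 and 7 overlapped none. In the deposited table of 23 regions, the 2 ERBS columns differed by less than the sampling noise over the 11 regions outside the 12 ERBSs (chi-square 0.503 with 10 degrees of freedom, p = 0.999993), whereas the 2 Adjacent columns differed (chi-square 65.5 with 16 degrees of freedom, p = 6.1e-08). One ERBS column is named for replicate 2 and the other names no replicate, so these columns may hold 1 library, and whether the 2 ERBS peak lists do was not tested. The HA enrichments of the members in the 2 ERBS lists had a Spearman's rho of 0.33. Without ERBS replicate 1 there were 3216 members and without ERBS replicate 2 there were 2524. Without Adjacent replicate 1, the shortest list, there were 3796, and without Adjacent replicate 2 there were 2528. Among the H3K27ac libraries, the one labelled dCas9-VP16(10x) Pool 1 replicate 2 carries peak names that point to the other fusion, and Adjacent replicate 1 with dCas9-VP16(10x) also received IL1RN gRNAs.

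The 1 kb limit to a start cut through a continuum, whereas no member lay near the 5 kb limit to a targeted locus. The 3 members farthest from a start, at KCTD2 (992 bp), SNAP47 (988 bp) and COL26A1 (967 bp), had HA enrichments in the IL1RN list of 5.48, 8.57 and 8.53. The 3 peaks just outside, at DAB2IP (1002 bp), AGRN (1005 bp) and JUNB (1018 bp), had 9.66, 11.1 and 13.1. At the other limit, the nearest member to a targeted locus was at HEMK1 (23978 bp away, enrichment 11.1), followed by RASSF1-AS1 (199847 bp) and RPL22 (222692 bp). Of the 4 peaks left out near targeted loci, the 3 farthest from one were at MAPKAPK3 (871 bp, 7.84), HES2 (10.3) and ESPN (12.4), the latter pair overlapping a targeted locus.

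Most members sat directly on a start. The peak covered the start at 2064 members (81.8%), the nearest start belonged to a protein coding gene at 2148 (85.2%) and to a long noncoding gene at 336, and starts on both strands lay within 1 kb at 980 (38.9%). In all, 2384 members (94.5%) had a protein coding start within 1 kb. The IL1RN list as a whole was already rich in promoters, with 7056 of 8148 peaks (86.6%) within 1 kb of a start.

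HA enrichment in the IL1RN list ranged from 4.34 to 25.7 over the members, with a median of 9.74. The medians at the same members were 7.84 and 24.3 in the ERBS lists and 7.63 and 20.1 in the Adjacent lists, so the 2 long lists also had the higher values. The order of members was shared in part between lists. Across the 2522 members, Spearman's rho between the IL1RN list and the others was 0.49 (ERBS replicate 1), 0.23 (ERBS replicate 2), 0.50 (Adjacent replicate 1) and 0.53 (Adjacent replicate 2), a description since all lists come from the same fusion and cells.

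The highest HA enrichment was at NUDT16, which encodes a nudix hydrolase that acts on RNA caps (chr3:131100162-131100700, its summit at -2 bp from the start). It reached 25.7 with IL1RN gRNAs, 17.2 and 47.3 with ERBS gRNAs, and 17.5 and 48.6 with Adjacent gRNAs. RNAPII at this promoter had a peak in all 20 libraries, from 9.01 to 20.3 (median 12.6) with dCas9-VP16(10x) and from 10.9 to 33.2 (median 27.2) with dCas9-p300(core). H3K27ac there was called in 6 of 10 dCas9-VP16(10x) and 3 of 10 dCas9-p300(core) libraries, so the member highest in HA lacked an H3K27ac peak in most libraries.

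VKORC1, the vitamin K epoxide reductase, came next at 25.6 in the IL1RN list, but at only 10.5 and 18.9 (ERBS) and 7.39 and 39.7 (Adjacent). Each of these other values lay below that of NUDT16 in the same list. CLIC4, an intracellular chloride channel protein, had 24.6, then 11.6 and 64.0, and 10.3 and 34.2. PTPN6, the phosphatase SHP-1, had 24.1, then 15.6 and 36.6, and 19.5 and 34.0. All 3 promoters had RNAPII in every library, with medians of 13.9, 15.6 and 13.3 under dCas9-VP16(10x).

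PTK6, a non-receptor tyrosine kinase, had its HA summit at -538 bp from the nearest start and an enrichment of 23.9. FOSL1, a subunit of AP-1, had 23.7 in the IL1RN list, 10.5 and 32.6 with ERBS gRNAs, and 16.5 and 56.5 with Adjacent gRNAs. RNAPII was called at FOSL1 in 7 of 10 dCas9-VP16(10x) libraries and 10 of 10 dCas9-p300(core) libraries, and H3K27ac in 3 of 10 with each fusion. The remaining 6 of the top 12 were the noncoding gene ENSG00000251161 (23.7), FAM193A (23.6), VPS26A (22.6), which encodes a retromer subunit, ZNF672 (22.6), CEP57L1 (21.6), which shares its promoter with SESN1, and NIBAN3 (21.4). In each of the 12, both long lists exceeded the shorter list of their pair.

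**Figure D1:**
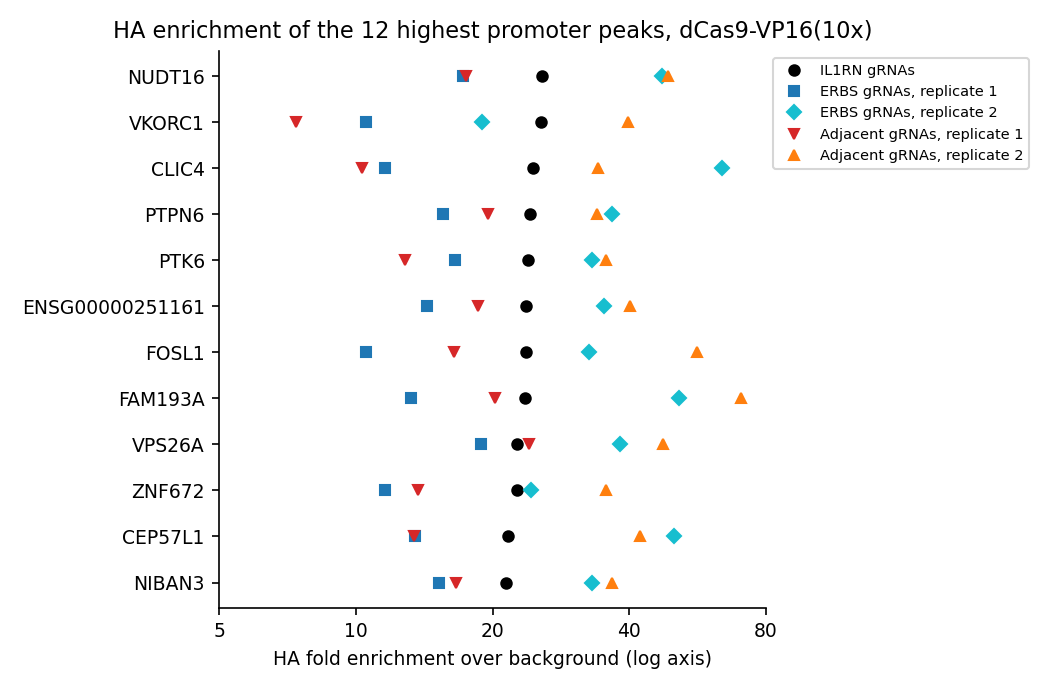
HA fold enrichment (x axis, log scale) of the 12 members with the highest value in the IL1RN list (y axis), one symbol per dCas9-VP16(10x) list. IL1RN values fall from 25.7 at NUDT16 to 21.4 at NIBAN3, and the replicate 2 symbols lie to the right of the replicate 1 symbols of the same pool at every promoter.

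RNAPII was present at nearly all members. A member overlapped an RNAPII peak in 81.0% to 99.0% of cases per library (mean 93.3% ± 5.01, SD over 20 libraries), against 45.1% to 93.8% of the 355 gRNA-independent HA peaks away from promoters. The members' share was higher in 20 of 20 libraries, by 5.25 to 39.6 percentage points. By comparison, 10.1% to 18.7% of all 102286 promoter windows (starts within 1 kb of each other merged, plus 1 kb on each side) held an RNAPII peak. RNAPII enrichment at the peaks was also higher at members than at the distal HA peaks in 20 of 20 libraries, with median values over libraries of 14.8 and 10.4. The rule required a start at members and none at distal peaks, so this contrast compares promoters with other sites that also carry HA.

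An RNAPII peak was found in all 20 libraries at 1931 members (76.6%), in at least 10 at 2410 (95.6%) and in none at 13. Those 13 were TMEM161A, MFSD12, PIK3R5, TEX45, FSD1, MUC5B, ARAP1, ANKRD35, KCNN3, CORO7, CELF5 and the genes ENSG00000256967 and ENSG00000267952 (chosen after their values were seen). Their HA enrichment ran from 16.4 at TMEM161A to 7.84 at CELF5, inside the range of the other members. At 7 of them no library had an H3K27ac peak either.

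H3K27ac was called at members far less evenly. The share with a peak ran from 6.19% to 98.2% per library (mean 58.6% ± 33.5, SD over 20 libraries), and the lists themselves held 1805 to 32052 peaks. With dCas9-VP16(10x) the median share was 84.3% and with dCas9-p300(core) 23.02%, and 7 of the 8 libraries under 50% were dCas9-p300(core) libraries with at most 10532 peaks. Only 75 members had H3K27ac in all 20 libraries, 1867 (74.0%) in at least 10, and 26 in none. By comparison, 0.891% to 16.0% of all promoter windows held an H3K27ac peak. Over libraries, the median share was 83.4% of windows with a member. It was 77.2% of windows with RNAPII in all 20 libraries but no peak in the IL1RN HA list. The share of windows with a member was higher in 20 of 20 libraries, by 1.88 to 12.4 percentage points. The windows with a member did not need RNAPII in all 20 libraries, and the sets were not matched for width. The members' share exceeded that of distal HA peaks in 17 of 20 libraries. H3K27ac enrichment at the peaks, in contrast to RNAPII, was higher at members in only 8 of 20 libraries. Its median values over libraries were 14.4 at members and 16.5 at distal HA peaks.

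**Figure D2:**
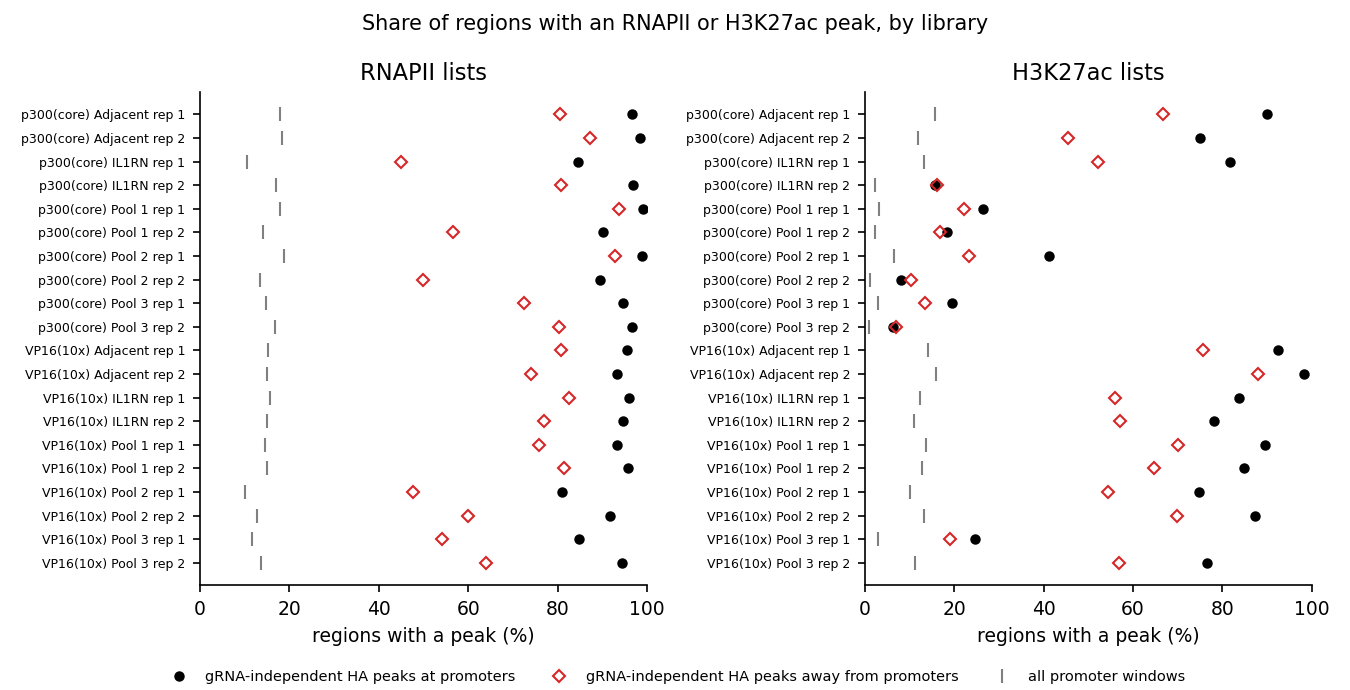
Percentage of regions with an RNAPII (left) or H3K27ac (right) peak (x axis) in each library (y axis, fusion, gRNA pool and replicate), for the 2522 members (filled circles), the 355 distal gRNA-independent HA peaks (open diamonds) and all 102286 promoter windows (ticks). RNAPII at members lies between 81.0% and 99.0% throughout, whereas H3K27ac spreads from 6.19% to 98.2%.

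The 3 kinds of peak took up different places around the start. HA summits had a median position of -39 bp from the start nearest to the IL1RN summit (medians of -53 to -27 bp over the 5 lists, taking each list's overlapping peak), and 59.6% to 66.9% of them were upstream. RNAPII summits lay a median of 31 bp downstream (7 to 42 bp over 20 libraries), and H3K27ac summits 134.5 bp downstream (109 to 178 bp over 20 libraries). The ranges of the libraries' medians did not overlap between the 3 antibodies. Within 100 bp of the start fell 49.6% to 61.4% of HA summits, 41.7% to 51.2% of RNAPII summits and 3.90% to 19.2% of H3K27ac summits. The start was picked as the one nearest to the HA summit, which favours short distances for HA but fixes no side of the start.

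**Figure D3:**
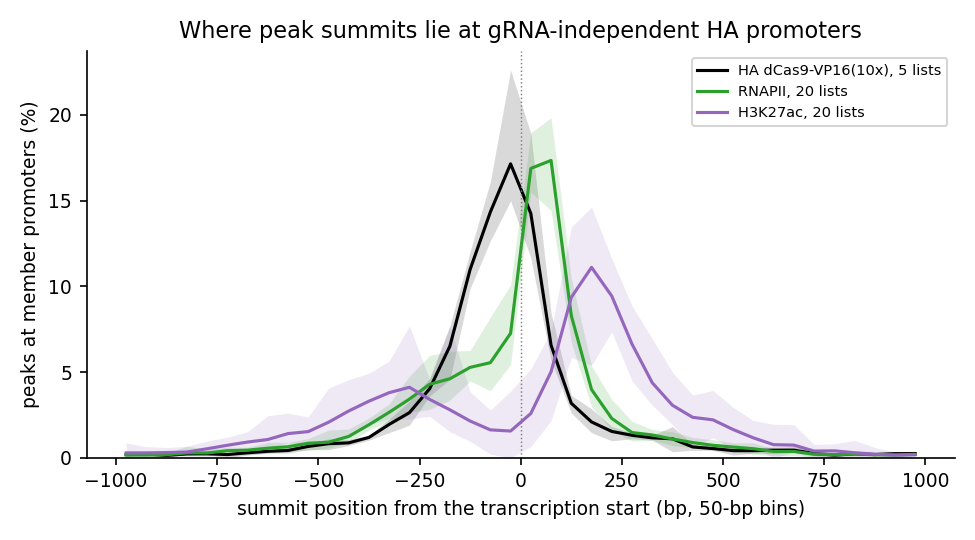
Percentage of peaks (y axis) by the position of the summit from the transcription start in 50-bp bins (x axis, bp, negative is upstream) at member promoters. Lines are means over lists and bands the lowest and highest list. HA peaks sit just upstream of the start, RNAPII just downstream, and H3K27ac is low at the start with its main peak downstream.

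HA enrichment was only weakly related to the level of either readout. Across the 2509 members with an RNAPII peak in any library, Spearman's rho between HA in the IL1RN list and the median RNAPII enrichment was 0.17. For H3K27ac it was 0.11 over 2496 members. Each median was taken over the libraries with a peak at that member, so members can rest on different libraries. With members without a peak set to 1, rho was 0.136 for RNAPII and 0.0769 for H3K27ac. With -log10 p in place of enrichment, rho was 0.0976 for RNAPII and 0.0590 for H3K27ac, and with dCas9-VP16(10x) libraries only it was 0.0632 for H3K27ac. In single libraries rho ran from 0.09 to 0.20 for RNAPII and from -0.02 to 0.14 for H3K27ac. RNAPII and H3K27ac were more closely related to each other at these promoters, with a rho of 0.41 over 2490 members. These values describe sites that share libraries, and all are given without p-values.

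Split into 5 equal groups by HA enrichment, members had median RNAPII enrichments of 13.8, 14.9, 15.7, 16.2 and 16.8 from the lowest HA quintile to the highest. The interquartile range within a quintile was wider than that rise, being 10.3 to 18.3 in the lowest quintile and 12.6 to 22.0 in the highest. Median H3K27ac, which rests on different libraries at different members, went from 18.7 to 22.1 between the same quintiles. The share with RNAPII in all 20 libraries stayed between 74.2% and 78.0%. The median HA enrichment of the same outer groups was 6.98 and 14.3.

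**Figure D4:**
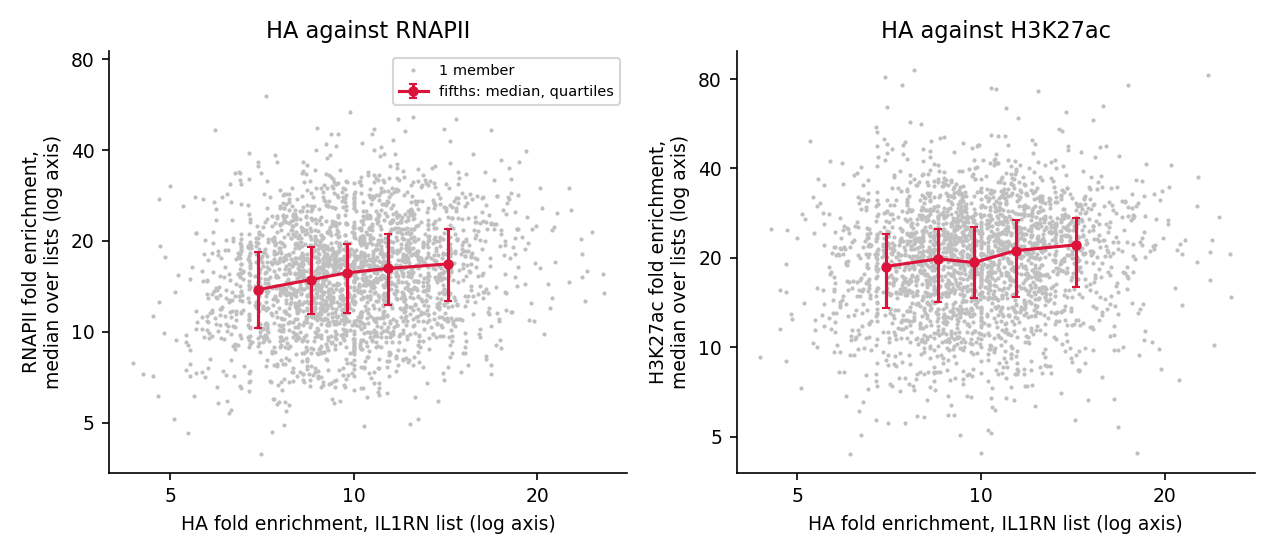
HA fold enrichment in the IL1RN list (x axis, log scale) against the median RNAPII (left) or H3K27ac (right) fold enrichment over the lists with a peak (y axis, log scale). Grey points are members, red points the medians of HA quintiles, and bars their quartiles. RNAPII medians rise from 13.8 to 16.8 and H3K27ac medians from 18.7 to 22.1.

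The same question was put the other way round, by asking which promoters with RNAPII held a member. Of 8381 promoter windows with an RNAPII peak in all 20 libraries, 2050 (24.5%) held a member, and 97.5% held an HA peak in at least 1 of the 5 lists. Of the 78783 windows without RNAPII in any library, 7 held a member (0.00889%). Among the windows with RNAPII, its level made little difference, since members were found in 22.8%, 24.6%, 25.9%, 24.6% and 24.5% of the quintiles from the lowest to the highest RNAPII enrichment. Among these windows, the median RNAPII enrichment of the 2050 with a member was higher than that of the 3420 without a peak in the IL1RN HA list in 7 of 20 libraries, with differences in enrichment from -1.03 to 2.78 (median -0.15).

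Within these 8381 windows, which all have RNAPII, the share with a member also varied with H3K27ac and base composition. The share with a member was 4.46% where at most 4 of 20 H3K27ac libraries had a peak (359 windows), 15.8% for 5 to 9, 23.1% for 10 to 14, 32.2% for 15 to 19 and 37.7% where all 20 had one (374 windows). Windows with more H3K27ac peaks were also wider, with medians from 2030 to 2792 bp, and wider windows can hold more peaks of any kind. Among windows no wider than the overall median of 2368 bp, a restriction added after the data were seen, the shares were 4.80%, 14.6%, 22.5%, 30.2% and 33.0%. By GC content of 150 bases on each side of the start, the share was 17.8% in the lowest quintile, 33.9% in the middle quintile and 13.8% in the highest quintile.

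The fall in the GC-richest quintile (73.8% to 87.4% GC) came with the short HA lists. There a peak was called in 46.8% of windows in the IL1RN list, 32.5% in ERBS replicate 1 and 21.2% in Adjacent replicate 1, against 71.3%, 51.8% and 45.5% in the middle quintile. The 2 long lists instead covered 99.8% of windows in that quintile, and 98.6% and 98.4% in the middle one. Which promoters of very high GC count as members was therefore set by the 3 shorter lists. The part of library depth and base composition in HA enrichment was not tested.

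**Figure D5:**
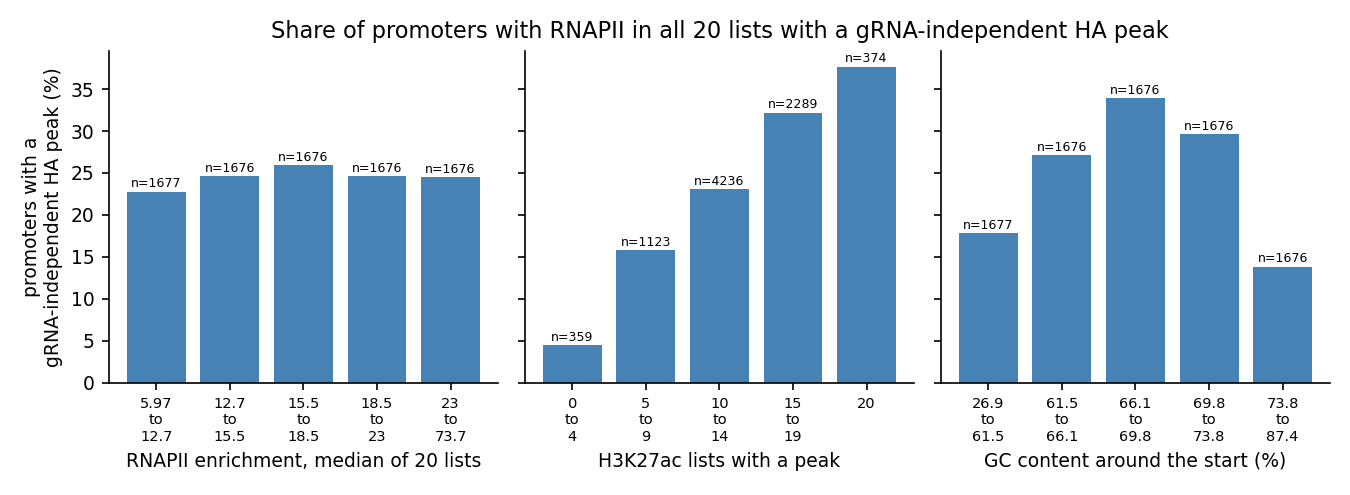
Percentage of promoter windows with RNAPII in all 20 lists that hold a member (y axis, bars from 0), by RNAPII enrichment, by the number of H3K27ac lists with a peak and by GC content (x axes), with the number of windows above each bar. The share is nearly level across RNAPII quintiles (22.8% to 25.9%), rises from 4.46% to 37.7% with H3K27ac and is highest (33.9%) at intermediate GC.

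GC content also went with HA enrichment among the members themselves, with a rho of 0.30 over 2522 members, above those for RNAPII and H3K27ac. Median GC within 150 bases of the HA summit rose from 65.4% in the lowest HA quintile to 69.4% in the highest. The mean number of GC boxes, the motif of SP and KLF family factors, rose from 1.58 to 2.47 between the same quintiles. Members and distal HA peaks were close in GC (medians of 67.4% and 66.1%) but not in CpG observed over expected (medians of 0.80 and 0.53).

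A GC box (GGGCGG on either strand) lay within 150 bases of the HA summit at 83.2% of members and 69.6% of distal HA peaks. Centred on the start, it was found at 77.0% of RNAPII windows with a member, 68.1% of those without an IL1RN list peak, and 61.6% of the canonical starts of 19881 protein coding genes. The ETS motif CCGGAAG occurred at 18.2% of member summits and 7.89% of distal ones, but was as common at RNAPII promoters without an IL1RN list peak (21.0%) as at those with a member (18.8%). Similar shares held for CCAAT, the NF-Y motif (30.7% of RNAPII windows with a member, 31.8% without), and for GCATGCGC, the NRF1 motif (5.37% and 5.61%). A match is a run of letters and no evidence of binding.

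Other motifs marked off the distal HA peaks. TGACTCA, the AP-1 motif, lay at 3.17% of member summits and 11.0% of distal summits, and AGGTCA, an element of nuclear receptors, at 8.25% and 13.2%. At members, CACGTG (E-box) was found at 9.32%, AAGATGGC (YY1) at 3.73%, TGACGTCA (CREB and ATF) at 2.50%, and CTCGCGAG and TATAAA at 2.26% each. Centred on the start, TATAAA was found at 2.73% of RNAPII windows with a member and 4.21% of those without an IL1RN list peak. It lay at 8.09% of the canonical starts of all protein coding genes, with or without RNAPII.

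Matches to the gRNAs listed by the study were searched at the members. The 12 bases next to NGG of any of the 87 gRNAs in that list occurred within 150 bases of the summit at 3 members (0.119%), at 0 of the 355 distal HA peaks, and at 15 of 19881 protein coding starts (0.0754%). With 8 bases next to NGG, 15.3% of members, 20.3% of distal HA peaks and 13.0% of protein coding starts had a match. The list covers the ERBSs and adjacent regions and also gene promoters that no library here targeted, and the gRNAs for the IL1RN promoter were not analysed here.

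With dCas9-p300(core) the HA lists were short, at 154 and 141 peaks, and overlapped 1 and 25 members. EEF1A1, which encodes a translation elongation factor, was the member found in both, at 68.2 and 46.3. In the dCas9-VP16(10x) lists this promoter (chr6:74230791-74231028) had 11.2 (IL1RN), 8.47 and 87.7 (ERBS), and 8.65 and 53.0 (Adjacent). Of these, the value in ERBS replicate 2 was above those of the top 12 promoters. Other members in the second dCas9-p300(core) list included HMGA2, a chromatin protein gene with 2 member peaks (15.7 and 8.02), VDAC2, a mitochondrial channel (11.8), ANXA7, an annexin (11.5), and ZNF672 (10.1). RNAPII had a peak in all 20 libraries at 24 of the 25. The few peaks of the dCas9-p300(core) lists do not allow HA levels of the fusions to be compared at the other members.

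Gene groups were described by how many of their genes had a member within 1 kb of a start. Over all 20136 protein coding genes the share was 13.7%, and over the 8619 with RNAPII in all 20 libraries it was 27.4%. Chaperones, which fold nascent and damaged proteins, stood at 13 of 25 genes (52.0%), led by the cytosolic HSP90 genes HSP90AB1 (HA enrichment 16.3) and HSP90AA1 (15.9) and the chaperonin subunit CCT7 (15.05). Glycolysis followed with 6 of 17 (35.3%), led by ALDOA (11.3), PKM (11.1) and PFKM (10.6), enzymes of the pathway's aldolase, pyruvate kinase and phosphofructokinase steps. Of the immediate early genes, 7 of 28 had a member, led by FOSL1 (23.7), IER2 (16.8) and the nuclear receptor NR4A1 (9.82). Among genes with RNAPII in all 20 libraries, the shares were 54.2% for chaperones, 41.7% for glycolysis and 23.8% for immediate early genes.

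Translation and RNA processing groups were near the share of genes with RNAPII. Translation factors had 9 of 36, with EIF3D (14.2), EEF1G (11.3) and EEF1A1 (11.2) the highest. Aminoacyl-tRNA synthetases had 4 of 16, with YARS1 (21.3), HARS1 (13.0) and TARS1 (8.76). The group of hnRNP, SR and other splicing proteins had 10 of 41 (24.4%), with SF3B2 (12.7), SRSF2 (10.7) and HNRNPA2B1 (9.98). Cytosolic ribosomal proteins had 15 of 79 (18.99%), with RPL36 (14.8), RPS20 (12.1) and RPLP2 (11.3) the highest. Of the 77 with RNAPII in all 20 libraries, 19.5% had a member, below the 27.4%.

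Nuclear-encoded oxidative phosphorylation genes had 11 of 61 (18.03%), with NDUFC1 (14.2), NDUFA11 (12.1) and ATP5F1A (11.6). RNA polymerase II subunits had 2 of 12, POLR2A (11.0) and POLR2H (8.83), DNA replication genes 5 of 31, led by the sliding clamp PCNA (11.1), and Mediator 4 of 31, led by CCNC (11.8). Long noncoding hosts of snoRNAs had 2 of 15, GAS5 (12.4) and SNHG12 (7.83), and proteasome subunits 3 of 31 (9.68%), led by PSMD8 (8.62). Of the steroid hormone receptors NR3C2 had a member (7.42), and of 14 estrogen-responsive genes RARA (10.1). At the low end were small RNA genes of RNA polymerase III, with 0 of 7. These are counts beside the background shares, without a test.

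Some promoters served the study as HA background. Of CTCF, TBP, SF3B4 and TRIM28, all but TBP had a member at a start. The IL1RN list gave 13.8 at CTCF, 11.9 at SF3B4 and 6.54 at TRIM28, and the TBP promoter had a peak in the 2 long lists (13.999 and 8.28). No member lay at the starts of MMP17, CISH, FHL2 or HES2, of which the last 3 have a window within 5 kb of a targeted locus. The rule left out any peak that close, so a missing member there does not mean missing HA. Of the 5 lists, 2 had an HA peak at MMP17, 5 at CISH, 3 at FHL2 and 4 at HES2. For the identity of the cells, the epithelial and endometrial genes KRT8, KRT18, KRT19, EPCAM, CDH1, PAX8, SOX17 and ESR1 all had RNAPII in 20 of 20 libraries, and members lay at KRT8, KRT19, EPCAM and CDH1. PTPRC, CD3E, CDH5, COL1A2, COL3A1 and ALB had RNAPII in 0 of 20 libraries and COL1A1 in 14.

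Whether RNAPII at the member promoters moved with the fusion was tested in a single limma fit to the 8381 windows with RNAPII in all 20 libraries, on log2 enrichment with each library centred on its median. With dCas9-VP16(10x) relative to dCas9-p300(core), 221 of 2050 windows with a member were higher (10.8%) and 99 lower (4.83%) at a Benjamini-Hochberg adjusted p of 0.05. Over all windows fitted, 11.3% were higher and 7.04% lower, so the shares at members were at or below the background. The median log2 difference was 0.01 at member windows and 0.00 over all windows. Without centring, 1 member window was higher and 1517 lower, against 24 higher and 6200 lower of all 8381 windows. The median log2 difference over all windows was then -0.72, and differences are therefore relative to that shift. The number that opens the peak names was the same in all 10 dCas9-p300(core) libraries, another in 7 dCas9-VP16(10x) libraries and absent in 3, so the fusion and whatever this number marks cannot be told apart. Leaving out 1 library at a time gave 162 to 553 member windows, with more than a 1.5-fold change on leaving out the dCas9-p300(core) libraries IL1RN replicate 1 (553), Adjacent replicate 1 (182), Pool 1 replicate 2 (199), Pool 2 replicate 2 (162) or Pool 3 replicate 2 (191), or the dCas9-VP16(10x) libraries Adjacent replicate 2 (198), IL1RN replicate 1 (204), IL1RN replicate 2 (195) or Pool 1 replicate 2 (207).

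The largest rises at member windows were at INTS4, PPP1R11, EYA3, CDK19 and EBNA1BP2. At INTS4, a subunit of the Integrator complex that cleaves nascent RNA, RNAPII enrichment was 8.95 to 22.9 (median 12.05) with dCas9-VP16(10x) and 4.99 to 16.7 (median 7.49) with dCas9-p300(core). After centring, the log2 difference was 1.34 ± 0.25 (SE, 10 libraries per fusion, limma adjusted p = 0.0050), and the values of the fusions overlapped. At CDK19, a kinase of the Mediator module, enrichment was 12.03 to 27.3 (median 17.4) against 9.46 to 22.5 (median 14.3), a log2 difference of 1.03 ± 0.14 (SE). The differences at PPP1R11, EYA3 and EBNA1BP2 (a window shared with TMEM125) were 1.16, 1.11 and 1.00. Without centring, these last 3 and CDK19 no longer passed (adjusted p of 0.097 to 0.31 in limma), and 12 of 20 fits that left out a library lost EBNA1BP2.

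The largest falls were at SOCS2-AS1, RILP, FZD1, UBR2 and SACM1L, with log2 differences between -0.67 and -0.62. The SOCS2-AS1 window also held a start of SOCS2, and the SACM1L window 1 of LIMD1-AS1. The value is that of the highest peak in the window, so it cannot be assigned to either gene. At SOCS2-AS1, antisense to the cytokine signalling inhibitor SOCS2, enrichment was 5.16 to 14.2 (median 8.26) with dCas9-VP16(10x) and 7.50 to 38.5 (median 26.8) with dCas9-p300(core). At UBR2, an E3 ubiquitin ligase, it was 5.67 to 11.7 (median 8.73) against 13.5 to 32.2 (median 21.4), so the deposited values did not overlap, although the centred values did. RILP, a lysosomal transport factor, lost its call in 14 of 20 fits that left out a library. The chaperone promoters, which had the highest share with a member, gave 0 calls in either direction among 13 windows tested. Over all member windows, 10.8% were higher and 4.83% lower. The median log2 difference of the chaperone windows was -0.14.

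The calls in the other gene groups stand beside 10.8% higher and 4.83% lower over all 2050 windows with a member. No group was tested as a set. Windows of the Mediator subunits MED23 and MED11 were higher with dCas9-VP16(10x), by 0.78 ± 0.19 and 0.70 ± 0.20 (log2, SE), 2 of the 4 tested. POLR2H, an RNA polymerase II subunit, had 2 windows, both higher (0.40 and 0.41). RPS6 and RPL5 were higher among 16 windows of ribosomal proteins (0.69 and 0.52), and LDHA, lactate dehydrogenase, among 5 of glycolysis (0.63). Of 10 windows of splicing proteins, SF3A3 was higher (0.53) and U2AF2 and HNRNPR lower (-0.41 and -0.28). PSMD11 of the proteasome (-0.34) and RFC2 of the DNA clamp loader (-0.41) were lower. Translation factors, aminoacyl-tRNA synthetases, oxidative phosphorylation and immediate early genes gave 0 calls in limma. All of these differences are smaller than the shift of -0.72 that centring removed, save that at MED23.

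RNAPII did not detectably move with the gRNAs at these promoters. Between the dCas9-VP16(10x) IL1RN pair and the other 4 dCas9-VP16(10x) pools, 0 of 2050 member windows passed in limma, as did 0% of all windows fitted. At an unadjusted p below 0.05 there were 48 member windows and 190 of 8381 in all. The group of 2 IL1RN libraries limits what this comparison can detect. The same contrast did not differ detectably between the fusions, with 0 of 2050 member windows and 0 of all 8381 past the threshold in limma. At an unadjusted p below 0.05 there were 67 and 273. Leaving out the dCas9-p300(core) library IL1RN replicate 2 left 1 library in that group. The median log2 difference was then -0.17 at member windows and -0.08 over all windows.

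H3K27ac could be fitted at 439 windows with a peak in all 20 libraries, 148 of them with a member. Between the fusions 0 of 148 member windows and 0% of all windows passed in limma, with 8 and 18 at an unadjusted p below 0.05. Between IL1RN and the other dCas9-VP16(10x) pools, 0 of 148 and again 0% passed, with 3 and 10 unadjusted. Without centring, 115 of 148 member windows and 319 of all 439 were higher with dCas9-VP16(10x), and 0 lower. The median log2 difference over all windows was then 0.99, the same direction as the lengths of the peak lists. Leaving out Pool 1 replicate 2 or Adjacent replicate 1 with dCas9-VP16(10x), whose labels are in doubt or mixed, gave 0 calls again in both comparisons.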

How the data were processed

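The authors deposited 1 narrowPeak list per library and a table of 23 regions. Per the submitters' processing notes, reads were handled with Bowtie 1.1.2, SAMtools, bedtools and MACS2 2.1.0.20140616 on hg19. The control and threshold of peak calling are not given in the sources used here, and the lowest -log10 p-value in any list was 10.0. In each deposited list, the fold ratio of a peak over background was used as enrichment, with its -log10 p and -log10 q for alternatives. The deposited table holds signal normalized by the authors for read depth and control promoters. Its 5 HA dCas9-VP16(10x) columns served to compare libraries, as whole multiples of each column's step (tolerance 0.02), and its other 42 columns were not used.

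Peaks overlapped when they shared at least 1 bp. Starts were those of GENCODE on hg19, and sequence was read from the same build. The members, lists and tests were chosen with earlier results of these data known. Genes were named as the 12 highest members, up to 3 per list, up to 5 rises and 5 falls per contrast, the study's control promoters and target genes, and the members nearest each limit. List symbols were matched through RefSeq synonyms. limma 3.58.1 in R 4.3.3 used 1 mean per fusion and pool (10 groups), with Benjamini-Hochberg adjustment over all windows fitted, and was tested on simulated data. Replicates are separate libraries, and nothing in the labels says whether they came from separate cultures, so p-values may measure technical spread only. Alternatives covered distances, overlaps, peak thresholds, scaling, blocks and left-out libraries. One gene, and the list that holds it, are not reported here.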

Additional observations from a re-analysis of the deposited data

How the results depend on the processing

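The number of members was within 1.5 times of 2522 with starts within 500 or 2000 bp, distances from the summit, protein coding starts only or 50% overlap, and fell to 534 when every peak needed a -log10 q of at least 20. Leaving out 1 of the 4 other HA lists gave 2524 to 3796 members, the highest without Adjacent replicate 1. The mean share with RNAPII was 87.1% when 50% of the member had to be covered, and leaving out a library gave 93.0% to 94.0%, or 56.5% to 61.4% for H3K27ac. With -log10 p in place of enrichment, rho was 0.0976 for RNAPII and 0.0590 for H3K27ac, and with dCas9-VP16(10x) libraries only it was 0.0632 for H3K27ac.

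Between the fusions, 1518 member windows passed for RNAPII without centring, against 24 higher and 6200 lower of all 8381 windows. For H3K27ac, 115 of 148 member windows and 319 of all 439 passed without centring. Leaving out a library gave 162 to 553 windows for RNAPII and 0 to 0 for H3K27ac. At member windows, both IL1RN comparisons stayed at 0 under every setting that kept all libraries. Of all windows, 1 of 11303 was higher for RNAPII when a peak in at least 8 of 10 libraries of each fusion sufficed. With the replicate block, 363 member windows passed for RNAPII between the fusions, against 1055 higher and 662 lower of all 8381. At member windows the other 3 comparisons gave 0. Replicate numbers were not taken to pair libraries, because the labels tie them to nothing shared and not every pair of groups correlated above 0.1 (12 of 45 for RNAPII, 28 of 45 for H3K27ac). As a hint from the data, 14 and 16 of 20 libraries correlated best with their own number. For H3K27ac, the number in the peak names as a block, and the libraries of 1 number alone (added after the data were seen), gave 0 calls. For RNAPII it could not be fitted as a block between the fusions. The cause of these changes was not tested. Depth is unknown from peak lists, and a missing peak may reflect a shallow library.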
